A study of Rattus norvegicus with 31 samples.

Results

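Cyp4a1, Cyp4a2, Cpt1a, Ehhadh, Pdk4, Acot1, Angptl4 and Fgf21 are target genes of the peroxisome proliferator-activated receptor alpha (PPARα) that serve, or signal the state of, fatty acid oxidation in the liver. They were taken by symbol from the count tables and described in all 7 groups of the study. All 8 of the 8 genes were in the tables, among 26312 annotated genes, and all 8 were kept among the 19904 genes tested, which had to reach a sum of at least 2 counts over all libraries.

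Total RNA was sequenced from 31 livers of young adult female Wistar rats (Crl:WI), 1 library per rat. All rats received an oral gavage each day for 28 days, and every group shared the vehicle, 0.5% aqueous carboxymethyl-cellulose. The 8 control rats received the vehicle alone. The neonicotinoid insecticide thiacloprid (THI) was given to 4 rats at 108 mg/kg bw/day. The azole fungicide imazalil (IMZ) was given to 4 rats at 93 mg/kg bw/day. The 3 rats sequenced for the neonicotinoid clothianidin (CTD) had received 288 mg/kg bw/day. The paper marks this CTD group as reduced by the killing of moribund animals. The sequenced CTD rats were therefore survivors of that dose. The part of such toxicity in the CTD results was not tested. Each binary mixture was given to 4 rats, THI + IMZ at 54 and 46 mg/kg bw/day, THI + CTD at 54 and 134 mg/kg bw/day, and IMZ + CTD at 46 and 135 mg/kg bw/day. The design asks what each compound does to liver transcripts at the dose given here, and whether a mixture does what its compounds do at the doses it holds.

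PPARα is a nuclear receptor of hepatocytes that senses fatty acids. With its partner, the retinoid X receptor, it binds direct repeats of AGGTCA that are separated by a single base, and it switches on genes for fatty acid uptake, omega oxidation in the endoplasmic reticulum, beta oxidation in peroxisomes and mitochondria, and ketone body synthesis. Its activity is known to rise in fasting and under fibrate drugs, and in rats and mice sustained activation enlarges the liver and makes peroxisomes multiply. Omega oxidation is carried out by Cyp4a enzymes, the peroxisomal pathway includes Ehhadh, and Cpt1a admits long-chain fatty acids to mitochondria. Pdk4 holds back the use of glucose, Acot1 splits acyl-CoA in the cytosol, and Angptl4 and Fgf21 are secreted proteins that act on other tissues.

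The libraries held 31820322 to 101230067 counts. The 10 hepatocyte markers summed to 170488 to 260799 CPM in every library (CPM is counts scaled to the normalized library total), so the liver label held. A lower transcript level in whole tissue cannot tell fewer cells of a type from less RNA per cell. Among markers of other cells, 4 of 8 Kupffer cell markers were lower in CTD and 4 of 8 in THI + CTD. Their summed level ranged from 334 to 475 CPM in CTD, from 357 to 435 CPM in THI + CTD and from 427 to 684 CPM in controls. Of 4 erythroid markers 3 were higher and 1 lower in CTD (summed 124 to 150 CPM, controls 22.2 to 52.2 CPM). In THI + CTD 1 of the 4, Hbb, was higher (summed 29.5 to 172 CPM). The endothelial marker Kdr was lower in CTD and in THI + CTD. Of 7 stellate cell markers, 1 was higher and 1 lower in each of these 2 groups. Among all genes 6.62% were called higher and 6.03% lower in CTD, and 2.67% and 1.71% in THI + CTD. The pancreas list was 96.4% Cpa1 and summed to 194 to 470 CPM in controls against at most 216 CPM in treated rats. Its members Prss1, Pnlip, Ctrb1 and Amy2a3 averaged under 0.1 CPM, as did the fat cell markers Lep, Plin1 and Retn. The fat cell list was 84.9% Cfd, which was lower in CTD and in THI + CTD. That list summed to 8.80 to 25.5 CPM in controls, 7.60 to 12.2 CPM in CTD and 6.62 to 10.1 CPM in THI + CTD. The part of these markers in the results was not tested.

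Promoter sequences were searched for letters of the receptor's element. RefSeq promoters on GRCr8, 250 bases before to 50 bases after a start, were matched for 7 of the 8 genes, all but Cyp4a1. Both strands were searched for 2 copies of AGGTCA in a row with 1 base between them (the strict repeat), for the same with any base at the fourth place of each copy, AGGNCA (the looser repeat, which includes every strict one), and for the single site AGGTCA, which lies within the strict repeat. The strict repeat was in 0.0538% of 33469 promoters and in 0 of 7 of the genes, and the looser repeat was in 0.415% of all promoters and in 0 of 7. The single site was in 16.2% of all promoters, in 1 of 7 of the genes (Cyp4a2) and in 22 of 80 promoters (27.5%) of further genes of the pathway. The looser repeat was in 1 of those 80, that of Fabp1, the liver fatty acid binding protein. The 120 bases before the start are shown for Fabp1 as an example of the repeat, for Cyp4a2 as the gene with a single site, and for Cpt1a as the gene called in a mixture, with the match in capitals.
Fabp1 (chr4:104749220-104749339, plus strand): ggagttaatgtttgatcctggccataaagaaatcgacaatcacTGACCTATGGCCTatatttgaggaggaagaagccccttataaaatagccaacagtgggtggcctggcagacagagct
Cyp4a2 (chr5:134170909-134171028, minus strand): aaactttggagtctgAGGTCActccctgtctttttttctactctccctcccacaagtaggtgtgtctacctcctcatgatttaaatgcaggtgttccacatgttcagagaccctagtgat
Cpt1a (chr1:209996040-209996159, plus strand): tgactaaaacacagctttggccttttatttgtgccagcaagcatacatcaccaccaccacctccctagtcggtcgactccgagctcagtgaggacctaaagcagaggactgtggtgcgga
The capitals in Fabp1 read the repeat on the opposite strand, at positions -77 to -65 from the start. Those in Cyp4a2 read the single site at positions -105 to -100. A match is a description of letters in this window, and no binding was measured.

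Of the 8 target genes, few were called, and a missing call does not show that a gene was unchanged. With edgeR's quasi-likelihood test and Benjamini-Hochberg adjustment over all genes (threshold 0.05), 0 of 8 were called in THI, where 0.543% of all genes were called, 0 of 8 in IMZ (0.251% of all genes), 1 of 8 in CTD (12.7%), 0 of 8 in THI + IMZ (1.18%), 1 of 8 in THI + CTD (4.39%) and 0 of 8 in IMZ + CTD (1.46%). The called genes were Acot1 in CTD and Cpt1a in THI + CTD, both higher. At an unadjusted p under 0.05 the counts were 2 of 8 in THI, 2 in IMZ, 1 in CTD, 1 in THI + IMZ, 3 in THI + CTD and 2 in IMZ + CTD, against 8.68%, 8.08%, 25.2%, 11.1%, 17.6% and 12.8% of all genes. DESeq2's Wald test called Cyp4a1 in IMZ and Pdk4 in IMZ + CTD and did not call Acot1 in CTD. The median log2 fold change of the 8 genes was 0.14 in THI, -0.20 in IMZ, 0.01 in CTD, 0.04 in THI + IMZ, 0.24 in THI + CTD and -0.38 in IMZ + CTD, while that of all genes lay between -0.07 and -0.01. All 6 comparisons share the same 8 control rats.

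**Figure D1:**
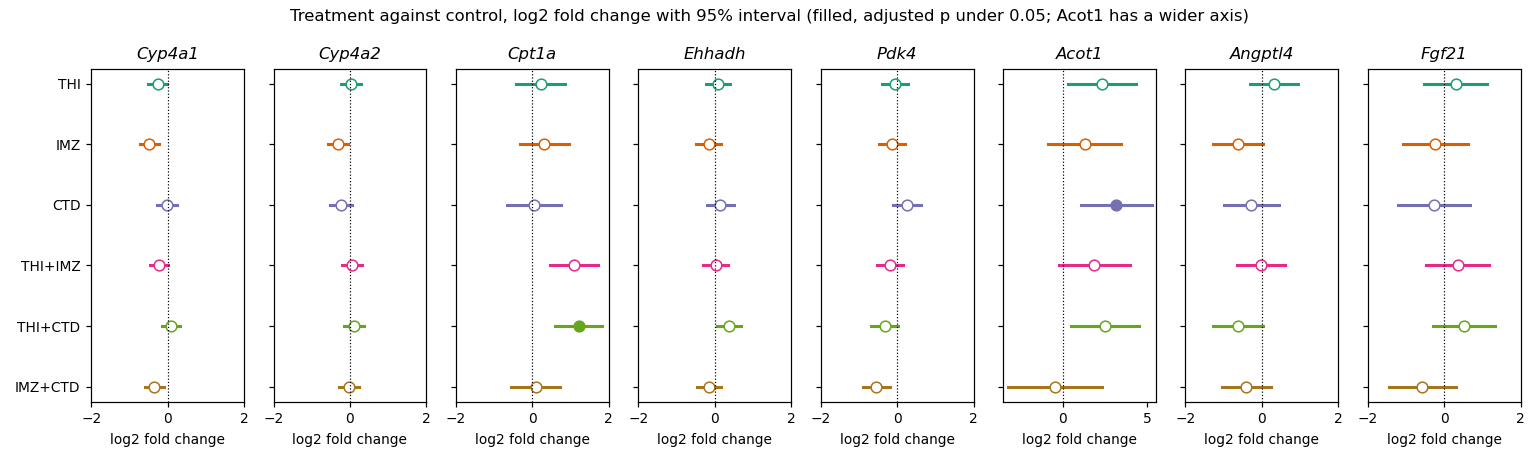
Log2 fold change of each target gene (panels) in the 6 treatments (rows) against the controls, with 95% intervals from the edgeR fit; filled points have an adjusted p under 0.05, and the Acot1 panel has a wider axis. Filled points are Acot1 in CTD (3.17) and Cpt1a in THI + CTD (1.21), and the intervals of Cpt1a, Angptl4 and Fgf21 are wider than those of Cyp4a1 and Cyp4a2.

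**Figure D2:**
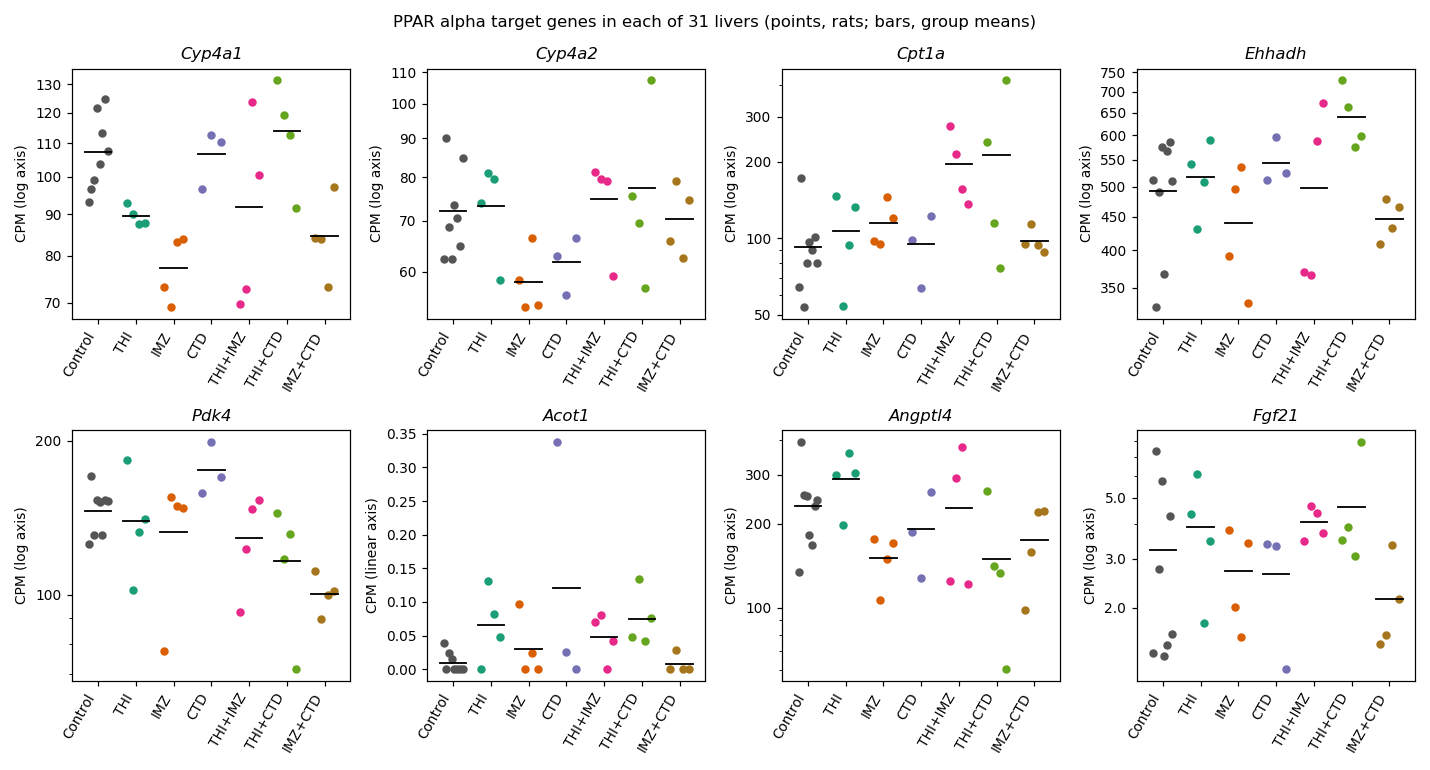
CPM of the 8 target genes in each rat (points) by group, with the group mean as a bar, on log axes except for Acot1. Neighbouring groups overlap in every panel, and THI + CTD rat 4 is the highest of all 31 for Cpt1a at 419 CPM and the lowest for Pdk4 at 71.5 CPM.

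Tested for any difference among the 7 groups at once, 2 of 8 genes passed, Cyp4a1 (adjusted p = 0.0173) and Cpt1a (adjusted p = 0.0257), where 9.51% of all genes did. Pdk4 had an adjusted p of 0.0948, and the other 5 lay between 0.195 and 0.502. When the groups were ordered by their mean level, each gene gave 6 pairs of neighbouring groups, and the ranges of rats overlapped in 48 of 48 pairs. Over all 19904 genes only 0.89% of such pairs did not overlap, so this count does not set the 8 genes apart. THI + CTD had the highest mean for Cyp4a1, Cyp4a2, Cpt1a, Ehhadh and Fgf21, CTD for Pdk4 and Acot1, and THI for Angptl4.

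Among the omega oxidation genes, Cyp4a1, a fatty acid omega hydroxylase that is a standard marker of PPARα activation in rat liver, had its lowest mean after IMZ. In controls Cyp4a1 ranged from 93.1 to 125 CPM with a median of 106 CPM. The IMZ rats had 73.3, 69.1, 83.1 and 83.8 CPM, and the THI rats had 92.9, 90.1, 87.6 and 87.7 CPM. All 4 IMZ rats and all 4 THI rats lay below every control, as was found for 0.553% of all genes in IMZ and 0.688% in THI. The log2 fold change of Cyp4a1 was -0.48 (SE 0.12, adjusted p = 0.0847) in IMZ and -0.26 (SE 0.12, adjusted p = 0.507) in THI, so neither passed the threshold in the fit over 7 groups. With only IMZ and control rats in the fit, or with DESeq2, the IMZ difference passed (adjusted p = 0.0253 and 0.0131).

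Cyp4a1 in the mixtures showed no call in either direction. The THI + IMZ rats had 69.7, 72.9, 124 and 100.7 CPM, and the IMZ + CTD rats had 84.1, 83.8, 73.2 and 97.2 CPM. Of the IMZ + CTD rats 3 of 4 lay below all controls (log2 fold change -0.35, SE 0.12, adjusted p = 0.154). In THI + IMZ 2 rats lay below all controls and the other 2 among them. The CTD rats had 96.7, 113 and 110 CPM and the THI + CTD rats 132, 119, 113 and 91.5 CPM, all but 2 of these 7 within the range of the controls. Taking the 6 comparisons together, the 95% intervals for Cyp4a1 ran from 0.609-fold to 1.25-fold.

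Cyp4a2, a related omega hydroxylase known in rats as a male-predominant form, did not pass the test in any comparison. The controls ranged from 62.3 to 90.1 CPM (median 69.7 CPM). The IMZ rats had 58.4, 53.9, 66.4 and 54.2 CPM, and 3 of 4 lay below every control (log2 fold change -0.31, SE 0.13, adjusted p = 0.502). The group means of the other 5 treatments lay between 61.8 and 77.4 CPM. The 95% intervals of Cyp4a2 over the 6 comparisons ran from 0.674-fold to 1.28-fold. The THI + CTD rats spread from 57.2 to 107 CPM, which takes in the whole range of the controls.

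The level of Cyp4a2 followed that of Cyp4b1 almost exactly. Cyp4b1 encodes another P450 of the same family and lies in the same gene cluster, in the order Cyp4a8, Cyp4a2, Cyp4a3, Cyp4a1, Cyp4b1 of the RefSeq annotation of GRCr8. Pearson's r of log2 CPM was 0.97 over the 31 libraries and 0.97 for the deviations from the group means, the highest of 10969 genes compared. The ratio of Cyp4b1 to Cyp4a2 counts, not corrected for length, was 6.01 to 6.94 in all 31 libraries with a coefficient of variation of 4.11%, where counting error alone gives 1.99%. Over the same libraries Cyp4a2 itself varied 1.99-fold between the highest and the lowest rat. Cyp4a1 from the same cluster did not follow Cyp4a2, with r 0.05 over all libraries and -0.24 for the deviations. Cyp4a3 is not a symbol of the count table, and whether reads of these related genes were shared was not tested. Cyp4a8 was near the detection limit, at 0.181 to 1.08 CPM in controls.

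**Figure D3:**
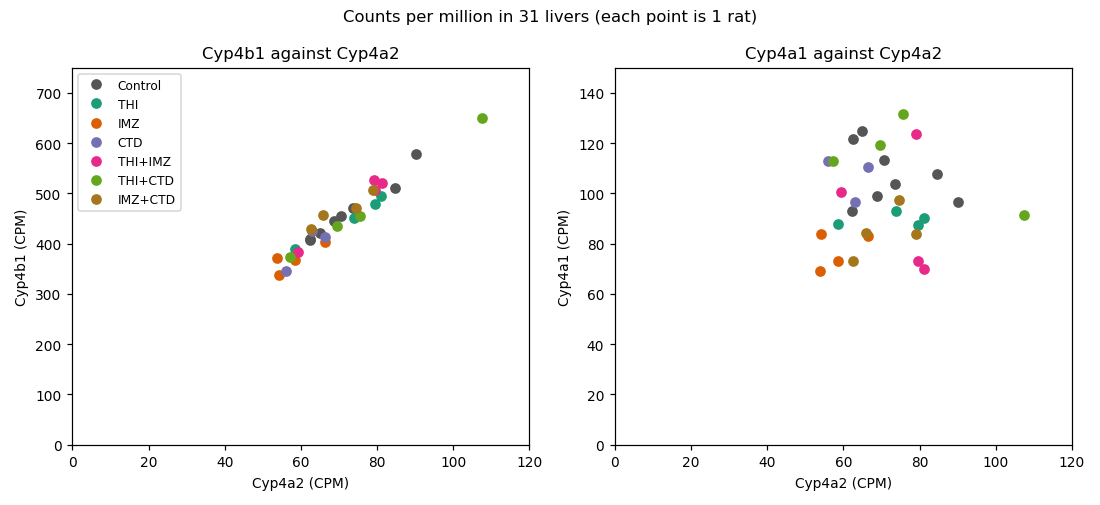
CPM of Cyp4b1 (left) and Cyp4a1 (right) against CPM of Cyp4a2, 1 point per rat, coloured by group, on linear axes that start at 0. The Cyp4b1 points lie along a line with a ratio of 6.01 to 6.94, while the Cyp4a1 points form a cloud (r 0.05).

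Cpt1a, the enzyme that controls the entry of long-chain fatty acids into mitochondria, was higher in THI + CTD. The controls ranged from 53.5 to 172 CPM with a median of 84.8 CPM. The THI + CTD rats had 239.5, 115, 76.3 and 419 CPM, a mean of 213 ± 154 CPM (SD, n = 4) against 92.1 ± 36.1 CPM (SD, n = 8). Rats 1 and 4 lay above every control, and rats 2 and 3 lay within the range of the controls. The log2 fold change was 1.21 (SE 0.30, 95% interval 0.59 to 1.82, adjusted p = 0.0159), a 2.31-fold rise. Without THI + CTD rat 4 the log2 fold change was 0.64 and the call was lost (adjusted p = 0.274), and with only THI + CTD and control rats in the fit the adjusted p was 0.0508.

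In THI + IMZ, Cpt1a reached 276, 214, 156 and 137 CPM. These rats lay nearer to each other than those of THI + CTD, and all 4 were above 7 of the 8 controls, control rat 2 being the exception at 172 CPM. The log2 fold change of Cpt1a in THI + IMZ was 1.09 (SE 0.30, 95% interval 0.47 to 1.71, adjusted p = 0.0762), past the threshold without control rat 2 (1.28, adjusted p = 0.0189), without THI + CTD rat 3 (adjusted p = 0.0394) or 4 (adjusted p = 0.03), and with only the groups compared (adjusted p = 0.0466). In the single compounds and in IMZ + CTD the group means of Cpt1a were 94.6 to 114 CPM. The log2 fold change there was 0.04 to 0.31, and each 95% interval included 0.

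Ehhadh, the bifunctional enzyme of peroxisomal beta oxidation, did not pass the test in any treatment. The controls ranged from 327 to 586 CPM (median 511 CPM). The THI + CTD rats had 729, 662, 575 and 597 CPM, of which 3 of 4 exceeded all controls. Their log2 fold change was 0.38 (SE 0.15, 95% interval 0.07 to 0.69), with an adjusted p of 0.17. The group means of the other 5 treatments lay between 439 and 544 CPM, and the 95% intervals over the 6 comparisons ran from 0.717-fold to 1.62-fold. The THI + IMZ rats formed a low pair at 370 and 367 CPM and a high pair at 587 and 671 CPM, the same split of rats as for Cyp4a1.

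Pdk4, the kinase that inactivates pyruvate dehydrogenase and so spares glucose when fat is burned, was lowest in IMZ + CTD. The controls ranged from 126 to 171 CPM with a median of 152 CPM. The IMZ + CTD rats had 111, 89.5, 99.7 and 102 CPM, all 4 below every control, as was found for 1.01% of all genes. Their log2 fold change of Pdk4 was -0.54 (SE 0.17, 95% interval -0.89 to -0.19) and did not pass the threshold (adjusted p = 0.116). It passed with DESeq2 (adjusted p = 0.0437) and with only IMZ + CTD and control rats in the fit (adjusted p = 0.00269). The CTD rats, at 158, 199 and 170 CPM, lay at the other end, with a log2 fold change of 0.27 (SE 0.18, adjusted p = 0.388). In the other 4 treatments 1 or 2 of 4 rats lay below all controls, and no comparison was called.

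Acot1, the cytosolic acyl-CoA thioesterase and a strongly inducible gene of fibrate-treated rats, was barely detected. The 8 controls held 4, 0, 1, 1, 0, 0, 0 and 0 counts, and the CTD rats held 13, 1 and 0 counts. The call in CTD (log2 fold change 3.17, SE 1.02, adjusted p = 0.0369) thus rested on CTD rat 1, without which the log2 fold change was 0.24 and the adjusted p 0.965. It was also lost without control rat 2, 5, 6, 7 or 8 (log2 fold change 2.99 to 3.07). The THI rats held 0, 7, 3 and 2 counts, the IMZ rats 5, 0, 1 and 0, the THI + IMZ rats 3, 3, 0 and 2, the THI + CTD rats 2, 6, 2 and 3, and the IMZ + CTD rats 0, 1, 0 and 0. With 0 to 13 counts per library, the 95% intervals of Acot1 over the 6 comparisons ran from 0.107-fold to 38.3-fold, so a difference of the size seen for Cpt1a was not detectable at this depth. Acot1 lies beside close relatives, and since uniquely mapped reads were counted, reads shared with them could be missing from its count.

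Of the relatives, Acot2, a mitochondrial acyl-CoA thioesterase, and Acot3, a peroxisomal one, were well above the detection limit and were called. Acot2 was 22.6 to 37.2 CPM in controls, 54.0, 51.0 and 41.8 CPM in CTD and 56.3, 48.2, 44.1 and 41.4 CPM in THI + CTD. All 7 of these rats exceeded every control, as for 5.33% of all genes in CTD and 2.14% in THI + CTD (log2 fold change 0.72, SE 0.17, adjusted p = 0.00433 in CTD, and 0.68, SE 0.16, adjusted p = 0.00893 in THI + CTD). Acot3 was 9.83 to 14.5 CPM in controls, 18.2, 16.05 and 15.8 CPM in CTD and 23.1, 16.1, 17.4 and 21.5 CPM in THI + CTD. Acot3 rose by 0.50 (SE 0.16, adjusted p = 0.0285) and 0.73 (SE 0.14, adjusted p = 0.00183) on the log2 scale. Neither gene was called in IMZ. The IMZ rats, with Acot2 at 37.9 to 57.3 CPM and Acot3 at 15.1 to 19.3 CPM, lay above the ranges of the controls. The share of all genes doing so in IMZ is not given here. The call for Acot2 in THI + CTD was lost without THI + CTD rat 1 (0.58) and that for Acot3 in CTD without CTD rat 1 (0.44) or 2 (0.53). Acot4 did not pass in any treatment, with log2 fold changes from -0.49 in IMZ + CTD to 0.66 in THI + CTD (adjusted p = 0.0785).

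The secreted proteins varied widely between rats of the same group. Angptl4, which inhibits lipoprotein lipase, ranged from 134 to 394 CPM in controls (median 238 CPM). The IMZ rats had 176, 107, 149 and 171 CPM (log2 fold change -0.62, SE 0.32, adjusted p = 0.646), and the THI + CTD rats had 263, 141, 134 and 60.2 CPM (log2 fold change -0.64, SE 0.32, adjusted p = 0.299). The THI rats had 299, 199, 358 and 305 CPM, of which 3 of 4 lay above the median of the controls and all 4 within their range. No comparison of Angptl4 was called, and its 95% intervals ran from 0.409-fold to 1.93-fold.

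Fgf21, a hormone of the liver that signals fasting and cellular stress, ranged from 1.34 to 7.36 CPM in controls with a median of 2.18 CPM. The THI + CTD rats had 3.52, 3.93, 3.07 and 7.95 CPM and the THI + IMZ rats 3.49, 4.67, 4.41 and 3.74 CPM. For Fgf21 the log2 fold changes were 0.52 (SE 0.40, adjusted p = 0.519) and 0.35 (SE 0.40, adjusted p = 0.782), and no treatment was called. The IMZ + CTD rats, with 1.48, 1.59, 3.38 and 2.15 CPM, had the lowest mean (log2 fold change -0.57, SE 0.43, adjusted p = 0.626). Between 39 and 373 counts of Fgf21 were found per library, and the 95% intervals ran from 0.365-fold to 2.53-fold.

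Variation between rats set the limits. The SD of log2 CPM within groups was 0.20 for Cyp4a1, 0.22 for Cyp4a2, 0.28 for Ehhadh and 0.31 for Pdk4, against a median of 0.19 for genes above 0 log2 CPM. For Cpt1a, Angptl4 and Fgf21 it was 0.58, 0.58 and 0.74, and their fitted biological coefficients of variation of 35.7%, 35.6% and 45.8% lay at percentiles 96.3, 96.2 and 98.1 of those genes. Between 23.6% (Fgf21) and 53.8% (Cyp4a1) of the sum of squares of log2 CPM lay between groups. The median of genes above 0 log2 CPM was 31.7%. Single rats were extreme for several genes at once. THI + CTD rat 4 was the highest of all 31 for Cpt1a, Cyp4a2 and Fgf21 and the lowest for Pdk4 and Angptl4. Control rat 2 was the highest control for Cpt1a, Cyp4a2, Pdk4, Angptl4 and Fgf21 and the lowest for Ehhadh.

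The 8 genes did not move as 1 block within groups. All genes of a library share its depth and normalization. Over the 31 libraries, the deviations from the group means correlated positively for Cyp4a2 with Cpt1a (r 0.60), Cyp4a1 with Ehhadh (r 0.57) and Cyp4a1 with Pdk4 (r 0.52). Those of Pdk4 with Acot1 (r -0.60), Cyp4a1 with Acot1 (r -0.42) and Cyp4a2 with Pdk4 (r -0.37) were negative, as were 12 others of the 28 pairs. Acot1 held at most 13 counts in any library, so its correlations rest on few reads. The gene most like Cpt1a over the 31 libraries was Ech1, an enzyme of the oxidation of unsaturated fatty acids (r 0.70). Ehhadh was most like Adh4, an alcohol dehydrogenase (r 0.81), and next Acbd5, a peroxisomal membrane protein that binds acyl-CoA (r 0.78). For Fgf21 the closest were Myd88 (r 0.72) and Plin2, a lipid droplet protein (r 0.68), for Angptl4 Ndufb11 (r 0.71), for Pdk4 Dnajc8 (r 0.75) and for Cyp4a1 Metrn (r 0.66).

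The mixtures held 0.5 times the single dose of THI, 0.5 times that of IMZ and 0.47 times that of CTD. Each mixture was therefore compared with the sum of the log2 fold changes of its compounds weighted by these factors. Of the 8 genes, 0 were called off this sum in THI + IMZ (0.0151% of all genes were), 0 in THI + CTD (0.286%) and 0 in IMZ + CTD (1.16%). DESeq2 called 0, 0 and 1. Those with an unadjusted p under 0.05 numbered 1, 3 and 1 (6.46%, 9.66% and 14.3% of all genes). Cpt1a stood above the sum by 0.82 (SE 0.31, adjusted p = 0.602) in THI + IMZ and by 1.08 (SE 0.31, adjusted p = 0.165) in THI + CTD on the log2 scale. Pdk4 differed from the sum by -0.59 (SE 0.17, adjusted p = 0.0771) in IMZ + CTD, where DESeq2 gave an adjusted p of 0.018, and by -0.42 (SE 0.17, adjusted p = 0.411) in THI + CTD. Angptl4 differed by -0.67 (SE 0.32, adjusted p = 0.517) in THI + CTD. The difference for Cpt1a in THI + CTD was 0.52 without THI + CTD rat 4 and 1.36 without rat 3, where it passed the threshold (adjusted p = 0.0462). That for Pdk4 in IMZ + CTD passed without IMZ rat 1 (-0.68, adjusted p = 0.0255) or THI + CTD rat 4 (-0.59, adjusted p = 0.0483) and with only the groups compared (adjusted p = 0.0331).

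Further genes of the pathway, 88 of 92 listed, gave 3 higher and 0 lower in THI, 1 and 1 in IMZ, 9 and 9 in CTD, 1 and 0 in THI + IMZ, 9 and 1 in THI + CTD and 1 and 0 in IMZ + CTD. Among all genes 0.377% were higher and 0.166% lower in THI, 0.191% and 0.0603% in IMZ, 6.62% and 6.03% in CTD, 0.849% and 0.332% in THI + IMZ, 2.67% and 1.71% in THI + CTD, and 1.0% and 0.452% in IMZ + CTD. The median log2 fold change of the 88 genes lay between -0.12 (IMZ + CTD) and 0.09 (THI + IMZ). By step of the pathway in THI + CTD, 4 of 19 peroxisomal genes, 2 of 20 mitochondrial genes and 3 of 13 other targets were higher, against 0 of 7 genes of omega oxidation, 0 of 4 of ketone body synthesis, 0 of 14 of uptake and activation and 0 of 11 of lipid droplets and lipolysis. In CTD 4 of 19 peroxisomal genes were higher and 3 lower, and 3 of 20 mitochondrial genes were higher and 1 lower.

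**Figure D4:**
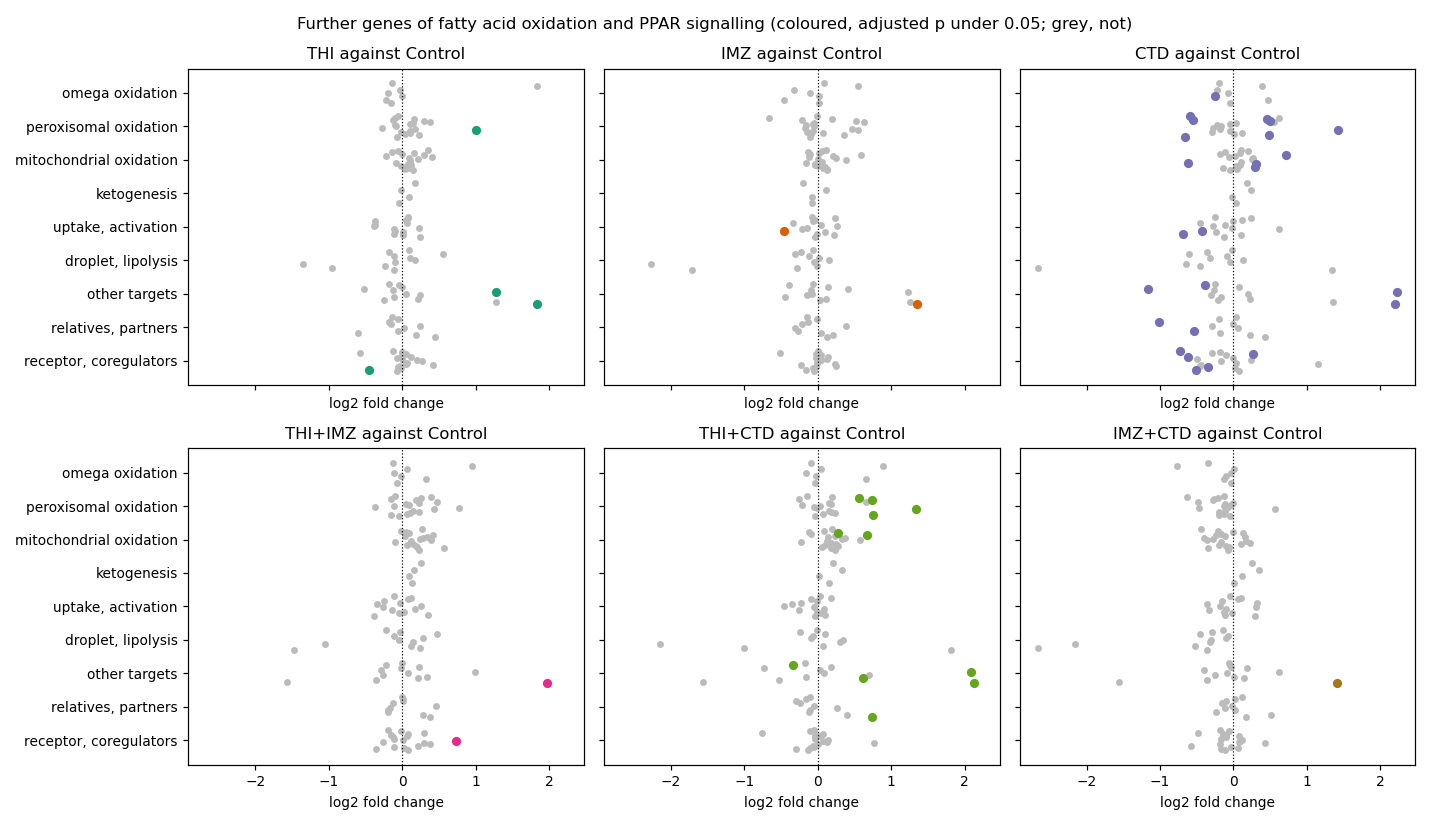
Log2 fold change (horizontal) of further genes of fatty acid oxidation and PPAR signalling, grouped by role (vertical), in each of the 6 treatments against the controls; coloured points have an adjusted p under 0.05. Among the 7 oxidation and target lists, coloured points number 9 higher and 9 lower in CTD and 9 higher and 1 lower in THI + CTD, and at most 3 in any other treatment.

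Vnn1, which encodes the pantetheinase vanin 1 and is regarded as a PPARα target in liver, was higher in all 6 treatments. It ranged from 0.912 to 2.74 CPM in controls. The CTD rats had 9.13, 7.81 and 7.29 CPM and the THI + CTD rats 7.999, 10.2, 5.81 and 6.50 CPM, each above every control. The log2 fold change of Vnn1 was 1.83 in THI, 1.35 in IMZ, 2.20 in CTD, 1.98 in THI + IMZ, 2.12 in THI + CTD and 1.42 in IMZ + CTD (SE 0.29 to 0.31, largest adjusted p = 0.0343, in IMZ). The call in IMZ was lost on leaving out any of 8 single rats, among them IMZ rat 1 (1.01), and the call in IMZ + CTD without IMZ + CTD rat 2 (1.31) or 4 (1.24).

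Crot, the peroxisomal carnitine octanoyltransferase that exports shortened fatty acids, was 38.0 to 75.5 CPM in controls. The THI rats had 113, 88.8, 126 and 129 CPM, the CTD rats 135, 170 and 155 CPM, and the THI + CTD rats 152, 144, 160 and 121 CPM. All 11 of these rats exceeded every control (0.734% of all genes did so in THI), and the log2 fold change was 1.00 in THI, 1.42 in CTD and 1.34 in THI + CTD (SE 0.18 to 0.20, largest adjusted p = 0.00403). Me1, the malic enzyme that supplies NADPH for fatty acid synthesis and also a listed PPARα target, was 20.7 to 54.7 CPM in controls. It was called higher in THI (log2 fold change 1.27, adjusted p = 0.0445), CTD (2.23, adjusted p = 1.39e-05) and THI + CTD (2.08, adjusted p = 7.25e-05). The THI rats had 54.0 to 97.7 CPM. Me1 was not called in IMZ or THI + IMZ. Those rats, at 55.0 to 90.1 and 59.8 to 66.4 CPM, lay above every control. The share of all genes doing so in these groups is not given here. The CTD rats had 100.6, 281 and 59.8 CPM, and without CTD rat 2 the log2 fold change of Me1 was 1.35. In THI the call for Me1 was lost on leaving out any of 18 single rats, with log2 fold changes of 1.12 to 1.43 over all 31 omissions.

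**Figure D5:**
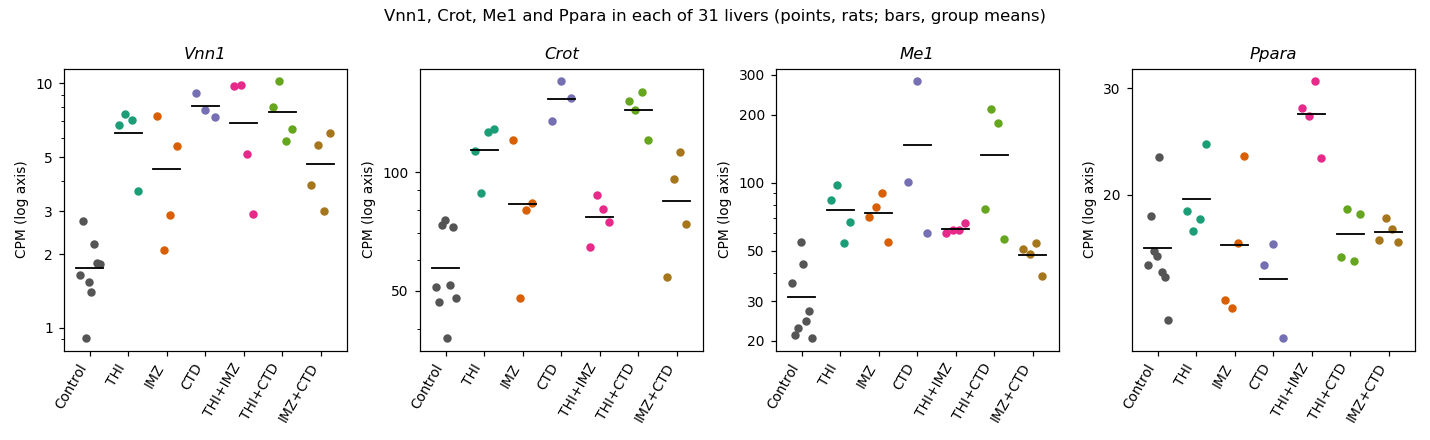
CPM of Vnn1, Crot, Me1 and Ppara in each rat (points) by group on log axes, with the group mean as a bar. The CTD and THI + CTD rats lie above all controls for Vnn1, Crot and Me1. So do the THI rats for Vnn1 and Crot, the THI + IMZ rats for Vnn1 and Me1 and the IMZ rats for Me1. The IMZ + CTD rats do so for Vnn1. For IMZ, THI + IMZ and IMZ + CTD the share of all genes above every control is not given. The THI + IMZ rats have the highest mean for Ppara, 27.2 CPM against 16.3 CPM in controls.

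Other called genes pointed both ways. Pex11a, a protein of peroxisome division, rose by 0.75 (SE 0.14, adjusted p = 0.00195) on the log2 scale in THI + CTD, with 25.3, 19.8, 17.2 and 20.0 CPM against 9.05 to 17.2 CPM in controls. Pdp2, a phosphatase that opposes Pdk4 at pyruvate dehydrogenase, rose by 0.74 (SE 0.16, adjusted p = 0.00494) in the same rats. Scp2, the peroxisomal sterol carrier protein and thiolase, had 533, 679 and 618 CPM in CTD against 907 to 1031 CPM in controls (log2 fold change -0.65, SE 0.10, adjusted p = 2.46e-05). Lower in CTD as well were the fatty acid transporter Slc27a4 (-0.69), the forkhead factor Foxo1 (-0.73), the FGF receptor Fgfr1 (-1.01), the kinase Pdk2 (-0.53) and the bile acid enzyme Cyp8b1 (-1.17, adjusted p = 0.043). The call for Pdk2 was lost without CTD rat 1 (-0.41) or 3 (-0.48), and that for Cyp8b1 without CTD rat 1 (-0.78) or 2 (-1.08) or control rat 1, 3, 5 or 8 (-1.17 to -1.12). Apoc3, an apolipoprotein that PPARα agonists are known to lower, fell by 0.34 (SE 0.09, adjusted p = 0.0287) in THI + CTD, and the call was lost without THI + CTD rat 1, 3 or 4. The transporter Slc27a1 was lower in IMZ (-0.46, adjusted p = 0.0208) and the receptor Rxrg in THI (-0.46, adjusted p = 0.037), calls that were lost without any of 4 and of 7 single rats.

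The receptor itself, Ppara, was called in THI + IMZ. The controls ranged from 12.4 to 23.1 CPM and the THI + IMZ rats had 27.9, 26.99, 30.8 and 22.999 CPM, of which 3 of 4 exceeded every control (log2 fold change 0.73, SE 0.14, adjusted p = 0.00312). In the other 5 treatments the log2 fold change of Ppara was -0.17 to 0.27, with adjusted p of 0.533 or more. Its partner Rxra had 133, 178 and 173 CPM in CTD against 181 to 228 CPM in controls (log2 fold change -0.34, SE 0.09, adjusted p = 0.00801), and the call was lost without CTD rat 1 (-0.22). Of 18 genes of the receptor, its partners and coregulators, 1 was higher and 4 lower in CTD, 1 was lower in THI, 1 was higher in THI + IMZ, and 0 were called in IMZ, THI + CTD and IMZ + CTD.

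Lists of other inputs to these genes are given by their counts of called genes, beside 6.62% of all genes higher and 6.03% lower in CTD, 2.67% and 1.71% in THI + CTD, 0.849% and 0.332% in THI + IMZ, 1.0% and 0.452% in IMZ + CTD, 0.377% and 0.166% in THI and 0.191% and 0.0603% in IMZ. Of 12 genes of gluconeogenesis and the fasting response, 1 was higher and 4 lower in CTD, 1 was higher and 3 lower in THI + CTD and 1 was higher in THI + IMZ. Of 9 targets of the integrated stress response, which also acts on Fgf21, 2 were higher and 2 lower in CTD and 2 were higher in THI + CTD. Of 12 clock genes 4 were lower in IMZ + CTD, 2 in CTD and 1 each in THI, THI + IMZ and THI + CTD. Of 15 targets of the xenobiotic receptors CAR and PXR, 9 were higher in THI, 7 in IMZ, 7 in CTD, 9 in THI + IMZ, 10 in THI + CTD and 6 in IMZ + CTD, with 0 lower. Their part in the levels of the 8 target genes was not tested.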

How the data were processed

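Total RNA of 31 rat livers was sequenced by the authors from stranded libraries, and reads were aligned to Rnor_5.0 with STAR 2.5.2b after FastQC 0.11.5 (per the labels); only uniquely mapped reads were used. The authors deposited raw counts per gene and a table of normalized counts, a signal made by dividing the counts by DESeq2 1.15.1 size factors. The raw counts were analysed here. Multiplying the normalized signal back gave whole reads for 100% of the deposited values (tolerance 1e-06) that equalled the counts, and the count test on them called the same numbers of genes (108 in THI, 50 in IMZ, 2518 in CTD, 235 in THI + IMZ, 873 in THI + CTD and 290 in IMZ + CTD). Whether the counting used the strand is not given in the sources used here.

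A gene was kept where its libraries summed to 2 counts or more (19904 of 26312 genes). These were normalized by TMM and fitted with edgeR 4.0.16 (quasi-likelihood, R 4.3.3), with 1 mean for each of the 7 groups and no covariate. Each treatment was tested against the controls, each mixture against the weighted sum of its compounds, and all groups together. Benjamini-Hochberg adjustment ran over every tested gene, with a threshold of 0.05. SE and 95% intervals come from the F statistic, and CPM values use TMM library sizes. Libraries held 31820322 to 101230067 counts, and the common biological coefficient of variation was 19.4%. The fit was tested on simulated data before use. Rats are separate animals, and no libraries were near-identical.

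The 8 genes and all lists were chosen with earlier results of these data known. Genes named beyond the 8 are, per treatment, up to 5 a direction with the largest change among called genes of the listed pathway, the receptor, its partner and the relatives of the 8 genes, and the 3 genes most correlated with each of the 8. Alternatives were DESeq2 1.42.0 (size factors, its Wald test, and its likelihood ratio test for all groups together), filterByExpr and no filter. Further ones were fits of only the groups compared, the replicate number as a block, exact dose ratios and leaving out each rat. The newer quasi-likelihood method of edgeR and the recovered reads were added after seeing the data.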

Additional observations from a re-analysis of the deposited data

Results flagged for a closer look

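Among 48 pairs of a target gene and a group (CTD, with 3 rats, was too small for the test), 5 held a rat whose gap to its nearest neighbour exceeded Dixon's 95% critical value, which chance does in about 1 in 20 groups. Control rat 2 was the highest control for Cpt1a, at 172 CPM with the next at 100.7 CPM, and for Angptl4, at 394 CPM with the next at 254 CPM. Cyp4a2 in THI + IMZ rat 4 was the lowest of its group at 59.3 CPM, with the next at 79.1 CPM. Pdk4 in IMZ rat 1 was the lowest of its group at 77.6 CPM, with the next at 148 CPM. Acot1 in IMZ + CTD rat 2 was 0.0284 CPM, a single count, with the other 3 rats at 0. Any lone count in such a group is flagged, so the rate of 1 in 20 does not apply to Acot1.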

How the results depend on the processing

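The direction and call of the single-gene log2 fold changes were unchanged in 630 of 655 values from alternatives other than leaving out a rat, with 16 calls lost, 7 gained and 2 reversals, and in 2444 of 2542 values with 1 rat left out, with 61 lost, 7 gained and 30 reversals. The cause was not tested for any of these. With DESeq2's Wald test the genes called numbered 199 in THI, 150 in IMZ and 435 in THI + IMZ. They numbered 1386 in THI + CTD and 567 in IMZ + CTD. Off the weighted sum it called 54 genes in THI + IMZ, 174 in THI + CTD and 603 in IMZ + CTD. DESeq2's likelihood ratio test called 3329 genes among the 7 groups. Target genes called by the Wald test were 1 in IMZ (Cyp4a1), 0 in CTD, 1 in IMZ + CTD and 1 off its sum (Pdk4). With filterByExpr 0 target genes were called in CTD, since Acot1 was not tested, and 391 genes were off the sum in IMZ + CTD. With only the groups compared 93 genes were called in IMZ, and target genes called were 1 in IMZ, 0 in CTD, 1 in THI + IMZ, 0 in THI + CTD, 1 in IMZ + CTD and 1 off its sum.

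The labels do not say that replicate numbers pair the rats. Deviations of same-numbered rats correlated by -0.27 to 0.42 (median 0.02, 78 pairs, 20 above 0.1). Those of differently numbered rats correlated by -0.42 to 0.43 (median -0.009, 326 pairs, 55 above 0.1). With the replicate block the genes called numbered 45 in THI, 23 in IMZ, 1571 in CTD, 53 in THI + IMZ, 348 in THI + CTD, 80 in IMZ + CTD, 6 off the sum in THI + IMZ and 1216 among the 7 groups. The block also ended the calls for Me1, Crot (0.90, adjusted p = 0.0809) and Rxrg in THI, Vnn1 and Slc27a1 in IMZ, Acot2 (adjusted p = 0.0563), Acot3 and Pdk2 in CTD, and Acot2 and Apoc3 in THI + CTD. Under this block 0 target genes were called in CTD, in THI + CTD and among the 7 groups, and the log2 fold change became 0.083 for Cyp4a1 in CTD and -0.070 for Fgf21 in THI.

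With 1 rat left out, genes called ranged from 67 to 120 in THI, 28 to 61 in IMZ, 1470 to 2573 in CTD, 143 to 297 in THI + IMZ, 450 to 969 in THI + CTD and 98 to 366 in IMZ + CTD, and off the sum from 1 to 9, 30 to 75 and 66 to 285 in THI + IMZ, THI + CTD and IMZ + CTD. Target genes called ranged from 0 to 1 in IMZ, CTD, THI + IMZ and THI + CTD, from 0 to 1 off the sum in THI + CTD and in IMZ + CTD, and from 1 to 3 among the 7 groups. Cyp4a1 in IMZ was called only without THI + IMZ rat 3. Small log2 fold changes that changed sign ranged from -0.054 to 0.053 for Cyp4a1 in CTD. For Cyp4a2 they ranged from -0.038 to 0.116 in THI, -0.10 to 0.22 in THI + CTD and -0.094 to 0.019 in IMZ + CTD. They ranged from -0.19 to 0.26 for Cpt1a in CTD, from -0.15 to 0.14 for Ehhadh in THI + IMZ, and for Pdk4 from -0.223 to 0.052 in THI and -0.226 to 0.048 in IMZ. For Acot1 they ranged from -0.38 to 2.07 in IMZ and -2.36 to 0.32 in IMZ + CTD, and for Angptl4 from -0.36 to 0.19 in THI + IMZ. For Fgf21 the ranges were -0.0058 to 0.574 in THI, -0.449 to 0.037 in IMZ and -0.484 to 0.075 in CTD. Depth limits Acot1 most, at 0 to 13 counts a library.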
